A study of Mus musculus with 24 samples.

Results

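Cholesterol synthesis and sterol control were followed through 31 genes, chosen by name from the pathway and found by gene identifier among the 35612 genes of the table. They comprise 19 synthesis enzymes, 5 genes of SREBP control, 2 of sterol transport and 5 of the LXR and efflux arm, and all 31 passed the filter on low values. The libraries hold RNA of CD4+ T cells that were sorted as Foxp3+ regulatory T cells (Treg) or Foxp3- conventional T cells (Tconv) from liver, liver-draining lymph node (LDLN), PBMC and spleen. All mice were males of the strain Foxp3Thy1.1 on a C57BL/6 background, aged 5 months, in which a Thy1.1 reporter at Foxp3 marks the Treg, and no treatment is named. The gate was live, CD45+ and TCRβ+, without NK-1.1, CD1d tetramer or CD8α, after positive selection for CD4. Each of the 8 groups has 3 libraries, each from a pool of 3 mice, so the spread given is that between pools and not between mice.

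Cholesterol is built from acetyl-CoA through mevalonate, the isoprenoid diphosphates and squalene to lanosterol, the first sterol, which a last series of enzymes converts to cholesterol. Supply is governed by SREBP transcription factors: when sterols are low, SCAP escorts SREBP to the Golgi for cleavage and the genes of synthesis are switched on, and when sterols are plentiful, the INSIG proteins hold SCAP in the endoplasmic reticulum. Surplus sterol in the form of oxysterols activates the LXR receptors, which switch on the exporters ABCA1 and ABCG1 and the ubiquitin ligase MYLIP. In T cells the pathway is known for supplying membrane during growth and division, and its isoprenoid branch supplies the lipid anchors of small GTPases.

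Levels are normalized read counts, that is, read counts divided by a factor for each library. The libraries held 17523927 to 25398037 reads in genes. Cd3e, a subunit of the T cell receptor complex, read 20836 to 28386 in the 24 libraries and Cd4 read 10356 to 27945. Foxp3 read 1402 to 2227 in the 12 Treg libraries. In Tconv it read 13.6 to 30.5 in 7 libraries and 305 to 627 in the other 5 (Liver 1 and 3, LDLN 3, PBMC 1 and Spleen 3), here called the Foxp3-bearing Tconv libraries. Liver Tconv 2, PBMC Tconv 2 and Spleen Treg 1 were highest in the summed markers of other cell types (the marker-rich libraries), and Liver Tconv 2 had a Clec4f count of 1098, a Kupffer cell gene that was at most 5.86 outside the liver. Of the members, Srebf1, Scap and Nr1h2 were lowest of all in Spleen Tconv 1, and Abcg1 was highest of all in PBMC Treg 1.

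Promoter sequences are shown for 5 members, picked by hand among those with large differences or with the pathway's best-known element. Nr1h3 and Stard4, which also differed widely among the groups, are not shown. They come from RefSeq on GRCm38.p6 and run from 250 bases before to 50 after a transcription start. 25 of the 31 members had such a sequence. Capitals mark the sterol regulatory element (TCACNCCAC), the site that SREBP is known to bind, and the CCAAT box (CCAAT, or ATTGG where it lies on the other strand), the site of the SREBP partner NF-Y. The Hmgcs1 promoter lies at chr13:119690101-119690400 (plus strand), that of Insig1 at chr5:28071162-28071461 (plus strand), that of Cyp51 at chr5:4104648-4104947 (minus strand), that of Ebp at chrX:8193463-8193762 (minus strand) and that of Mylip at chr13:45389492-45389791 (plus strand).
Hmgcs1: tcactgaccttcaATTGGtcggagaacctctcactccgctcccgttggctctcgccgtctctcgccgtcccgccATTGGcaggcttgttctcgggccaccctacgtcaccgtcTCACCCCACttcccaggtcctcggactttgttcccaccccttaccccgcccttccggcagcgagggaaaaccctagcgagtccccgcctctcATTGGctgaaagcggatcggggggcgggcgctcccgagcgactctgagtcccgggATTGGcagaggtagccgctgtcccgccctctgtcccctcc
Insig1: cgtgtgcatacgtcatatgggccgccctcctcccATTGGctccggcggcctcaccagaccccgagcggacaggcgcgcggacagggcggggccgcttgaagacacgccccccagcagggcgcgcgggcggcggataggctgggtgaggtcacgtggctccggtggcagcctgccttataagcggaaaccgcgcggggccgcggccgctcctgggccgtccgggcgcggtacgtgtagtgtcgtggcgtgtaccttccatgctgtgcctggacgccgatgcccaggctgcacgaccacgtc
Cyp51: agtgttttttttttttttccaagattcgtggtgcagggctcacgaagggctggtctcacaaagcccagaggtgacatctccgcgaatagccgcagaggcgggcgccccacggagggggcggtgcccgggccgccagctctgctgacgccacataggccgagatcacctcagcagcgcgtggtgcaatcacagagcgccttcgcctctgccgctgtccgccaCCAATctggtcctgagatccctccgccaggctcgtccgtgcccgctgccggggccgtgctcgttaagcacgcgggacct
Ebp: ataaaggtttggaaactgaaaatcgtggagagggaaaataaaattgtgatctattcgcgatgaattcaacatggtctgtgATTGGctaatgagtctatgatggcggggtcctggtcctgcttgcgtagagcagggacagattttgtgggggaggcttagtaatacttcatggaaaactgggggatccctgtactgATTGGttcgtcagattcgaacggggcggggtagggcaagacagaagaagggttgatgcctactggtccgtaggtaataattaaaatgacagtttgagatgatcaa
Mylip: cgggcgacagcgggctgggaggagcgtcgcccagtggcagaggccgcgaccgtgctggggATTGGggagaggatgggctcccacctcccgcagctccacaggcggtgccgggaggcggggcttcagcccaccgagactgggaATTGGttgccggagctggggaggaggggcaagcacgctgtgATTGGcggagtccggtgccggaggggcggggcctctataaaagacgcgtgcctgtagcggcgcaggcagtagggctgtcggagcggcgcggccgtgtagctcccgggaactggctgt

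Searched on both strands, TCACNCCAC was found in 1 of the 25 member genes, Hmgcs1, where it starts 137 bases before the transcription start, and in 1.44% of the 27025 genes with such a sequence. The looser TCACNNCAC, which includes the first motif and was chosen after the first search, was found in 4 of 25 members (Hmgcs1, Hsd17b7, Msmo1 and Dhcr7) and in 4.37% of genes. CCAAT was found in 20 of 25 members and in 41.1% of genes. The GC box GGGCGG, bound by Sp1, was found in 21 of 25 members and in 38.2% of genes. These matches describe the letters of the windows only.

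Divided by the length of its merged exons, the level of Abcg1, the exporter that passes cholesterol to lipoprotein particles, was the highest of the 31 members, at 1103 normalized reads per kb as the mean of the 24 libraries. The late enzymes Ebp at 655 and Sc5d at 493, the isoprenoid enzyme Ggps1 at 463 and Mylip at 450.3 came next per kb. Nr1h3, which encodes LXRα, was lowest at 22.3 per kb, below the sterol reductase Tm7sf2 at 25.6 and Scap at 40.2. Its relative Nr1h2, LXRβ, stood at 243 per kb. Srebf2, the factor best known for cholesterol genes, was at 204 and Srebf1 at 109 per kb. Summed over the 19 enzymes, the level per kb was 5175 ± 396 (SD, n = 3) in Liver Treg, 4950.3 ± 169.8 in Spleen Tconv, 4608 ± 311 in PBMC Treg and 4562 ± 221 in Spleen Treg. It was 4161 ± 177 in Liver Tconv, 4099.9 ± 136 in LDLN Tconv, 4084 ± 133 in LDLN Treg and 3904 ± 159.9 in PBMC Tconv. The ranges of these last 4 groups overlapped. The range of Liver Treg, 4748 to 5531, also overlapped those of Spleen Tconv, PBMC Treg and Spleen Treg. That of PBMC Treg, 4297 to 4918, overlapped that of Liver Tconv, which reached 4332. 12 members share exon bases with another annotated gene, and for Hmgcs1, Fdps, Fdft1, Tm7sf2 and Scap the shared part is 10% or more. No source used here states whether reads were counted by strand, which leaves the levels of Hmgcs1, Fdft1 and Scap uncertain. Fdps and Tm7sf2 share bases with genes on the same strand, so their levels are uncertain with either way of counting. Fdft1 shares its bases with the protease gene Ctsb on the opposite strand, and Fdps with a same-strand gene model.

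**Figure D1:**
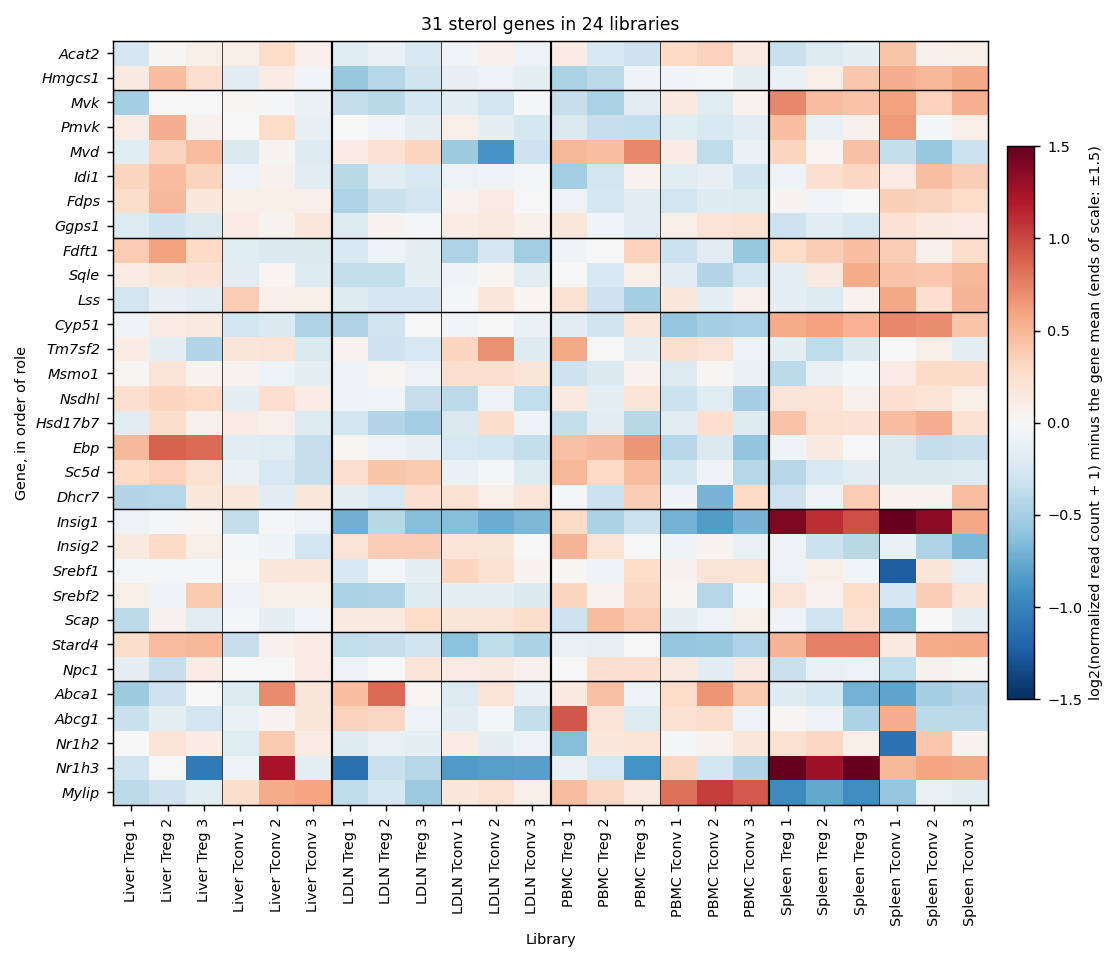
Heat map of the 31 members (rows, ordered by role) in the 24 libraries (columns, ordered by tissue and cell type), coloured by log2(normalized read count + 1) minus the gene's mean over the libraries, with colours ending at 1.5 on either side. The spleen columns are high for Insig1, Cyp51, Stard4 and Mvk and low for Mylip, and the Liver and PBMC Treg columns are high for Ebp.

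Between Treg and Tconv the members did not move as 1 block: the enzymes Ebp, Sc5d and Mvd were higher in Treg in 3 tissues each, Fdps, Ggps1 and Acat2 were lower in 2 tissues each, and Mylip was lower in all 4. The test was limma on log2(normalized read count + 1), adjusted over 18576 genes, with a threshold of 0.05, and a difference is Treg minus Tconv on that scale. In liver, 8 of 31 members passed (25.8%, against 20.5% of all genes tested), 6 higher and 2 lower in Treg (all genes 10.2% and 10.3%), with a member median of 0.11 against 0.03 over all genes. In LDLN 4 passed (12.9% against 13.8%), 2 in each direction (all genes 7.83% higher and 5.99% lower), with a median of -0.16 against 0.00. In PBMC 9 passed (29% against 18.2%), 7 higher and 2 lower (all genes 10.2% and 7.95%), with a median of 0.06 against -0.01. In spleen 10 passed (32.3% against 18.8%), 3 higher and 7 lower (all genes 10.1% and 8.75%), with a median of -0.07 against -0.02. As the mean of the 4 tissues, 14 passed (45.2% against 39.6%), 7 in each direction (all genes 19.7% higher and 19.9% lower). Higher for this mean were Mvd, Fdft1, Nsdhl, Ebp, Sc5d, Insig2 and Stard4, and lower were Acat2, Hmgcs1, Fdps, Ggps1, Lss, Msmo1 and Mylip. The LDLN share was at that of all genes, and the liver and mean shares lay only a few points above it. No member was higher in Treg in 1 tissue and lower in another by this test: 9 were only higher, 7 only lower, and 15 passed in none of the 4 tissues. In a fit of only the groups compared, 9 members passed in LDLN (all genes 19.5%), 5 in PBMC (all genes 11.9%) and 5 in spleen (all genes 13.1%), so the order of the counts among tissues is not fixed. Deviations of same-numbered Treg and Tconv pools correlated at over 0.1 in every pair in liver and LDLN. Liver Treg 3, however, correlated more with a Tconv pool of another number (0.147) than with its own (0.102), so pairing is an assumption. With the replicate number as a block, 12 members passed in liver (all genes 24.3%), which adds Hmgcs1 (adjusted p = 0.0485), Lss (0.0413), Abca1 (0.0429) and Nr1h3 (0.0288), and 5 in LDLN (all genes 16.5%), which adds Msmo1 (0.0458). That block spans all 4 tissues, also PBMC and spleen, where the numbers were not taken to pair the pools. Under it Hmgcs1 was higher in Treg in liver and lower in spleen, and Nr1h3 the opposite. Without the block only the spleen differences of these genes passed. In bulk RNA, a lower level can mean fewer cells of a type or less RNA per cell, and these cannot be told apart.

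Without the 5 Foxp3-bearing Tconv libraries, the counts were 4, 7 and 7 in LDLN, PBMC and spleen. This leaves 1 Tconv library in liver, Liver Tconv 2, that is assumed to vary like the other groups. It was the highest of all libraries in the summed markers of other cell types, at 152158. For a liver call lost in this fit, the parts of Foxp3 reads, other cells' RNA and the single library cannot be told apart. Without the 3 marker-rich libraries the counts were 10, 4, 7 and 6 in liver, LDLN, PBMC and spleen. The shares of all genes passing in these fits are not given here, so a changed count is not a result about the members alone. A call lost in any of up to 38 alternative analyses or left-out libraries is given with that setting's adjusted p beside the gene, and 53 of the 90 member calls were kept in all of them. The PBMC count was 5 without PBMC Treg 3, and the spleen count was 6 without Spleen Treg 1. Genes of the cell cycle moved with cell type: of 10 such genes, 10 were higher in Treg in liver, 9 in PBMC and 10 in spleen, with median log2 differences of 2.39, 1.46 and 1.69. In LDLN 0 of the 10 passed in limma, 3 had an unadjusted p under 0.05 and the median was 0.56. Their part in the member results was not tested.

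**Figure D2:**
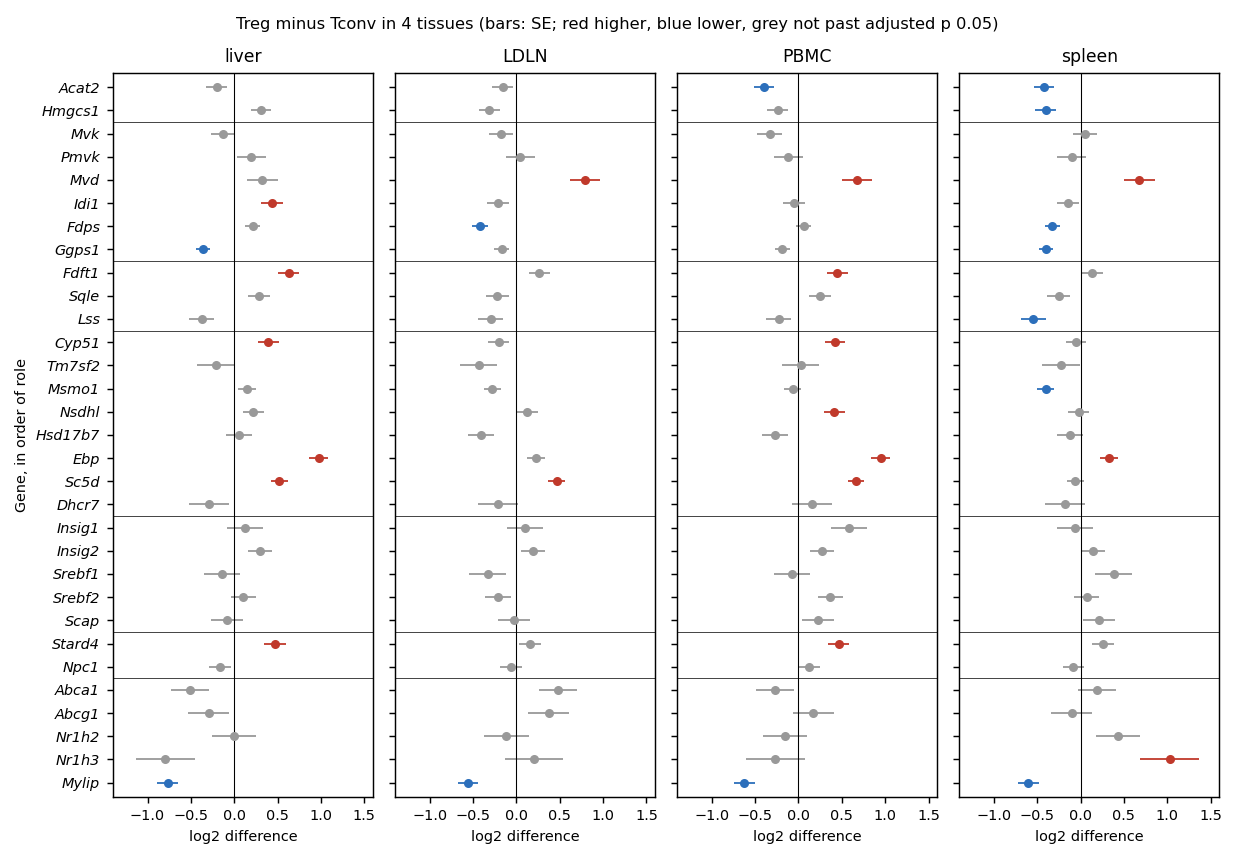
Log2 difference of each member between Treg and Tconv in each of the 4 tissues (points, with bars of 1 SE). Red marks an adjusted p under 0.05 and higher in Treg, blue the same and lower, and grey the rest. Mylip is blue in all 4 tissues, while Ebp, Mvd and Sc5d are red in 3 tissues each.

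At the entry to the pathway, Acat2 was lower in Treg in PBMC and spleen, and Hmgcs1 in spleen. Acat2, the cytosolic thiolase that joins acetyl-CoA units, was lower in Treg in PBMC, with a difference of -0.40 ± 0.12 (SE, adjusted p = 0.0226), and in spleen, with -0.42 ± 0.12 (SE, adjusted p = 0.0156). The mean over the 4 tissues differed by -0.30 ± 0.060 (SE, adjusted p = 0.000371). The Acat2 call in PBMC was lost without PBMC Tconv 1 or 2 or PBMC Treg 2 or 3 (adjusted p 0.0713 to 0.113), in a fit of only the groups compared (adjusted p = 0.112), without the 5 Foxp3-bearing Tconv libraries (adjusted p = 0.0972), and without the 3 marker-rich libraries (adjusted p = 0.0854). The Acat2 call in spleen was lost without Spleen Tconv 1 or Spleen Treg 1 (adjusted p 0.0787 to 0.099), in a fit of only the groups compared (adjusted p = 0.067), and without the 3 marker-rich libraries (adjusted p = 0.0765). Hmgcs1, the HMG-CoA synthase, read 1581, 1821 and 2239.7 in the 3 Spleen Treg libraries and 2466, 2399 and 2517 in Spleen Tconv. In LDLN it read 1144, 1258 and 1379 in Treg and 1550.5, 1591 and 1538 in Tconv. All Treg values lay below all Tconv values in both tissues, and the spleen difference of -0.40 ± 0.12 (SE, adjusted p = 0.0218) passed, whereas the LDLN difference of -0.31 ± 0.12 (SE, adjusted p = 0.0975) did not. The Hmgcs1 call in spleen was lost without Spleen Tconv 1 or 3 or Spleen Treg 1 or 2 (adjusted p 0.0514 to 0.156), and with quantile scaling, in a fit of only the groups compared, without the 5 Foxp3-bearing Tconv libraries and without the 3 marker-rich libraries (adjusted p 0.0503 to 0.145). In liver the order was the opposite, with 1852, 2342 and 2016 in Treg and 1519.7, 1834 and 1650.0 in Tconv, a difference of 0.31 ± 0.12 (SE, adjusted p = 0.0746) that did not pass without the replicate block (adjusted p = 0.0485 with it). PBMC gave 1219, 1288 and 1619.8 in Treg and 1639.5, 1666 and 1531 in Tconv, with overlapping groups. Its mean over tissues differed by -0.16 ± 0.060 (SE, adjusted p = 0.0374). The Hmgcs1 call for the mean of the tissues was lost without LDLN Tconv 1 or 2, LDLN Treg 1 or 2, Liver Tconv 2 or 3, Liver Treg 1 or 3, PBMC Tconv 1 or 2, PBMC Treg 1 or 2, Spleen Tconv 3 or Spleen Treg 1 or 2 (adjusted p 0.0505 to 0.0803), and with no filter, with quantile scaling, with no variance trend, with edgeR on the recovered reads, without the 5 Foxp3-bearing Tconv libraries and without the 3 marker-rich libraries (adjusted p 0.0566 to 0.175).

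Of the genes from mevalonate to the isoprenoids, Mvd and Idi1 were higher in Treg and Fdps and Ggps1 lower, each in the tissues given here. Mvd, the decarboxylase that makes isopentenyl diphosphate, read 251, 271 and 292 in LDLN Treg and 161, 125 and 188 in LDLN Tconv. In PBMC it read 328, 318 and 384 against 254, 178 and 217, and in spleen 292, 237 and 316 against 182, 157 and 186. The groups did not overlap in these 3 tissues, and the differences were 0.79 ± 0.18 (SE, adjusted p = 0.00283) in LDLN, 0.67 ± 0.18 (SE, adjusted p = 0.0087) in PBMC and 0.68 ± 0.18 (SE, adjusted p = 0.00871) in spleen. In liver, with 205, 293 and 321 in Treg and 201, 239 and 203 in Tconv, the groups overlapped. The mean over tissues differed by 0.62 ± 0.088 (SE, adjusted p = 5.67e-06). The Mvd call in PBMC was lost without PBMC Tconv 2 (adjusted p = 0.0577), and without the 3 marker-rich libraries (adjusted p = 0.0645). Ggps1, which makes the geranylgeranyl diphosphate used to anchor small GTPases, was lower in Treg, with differences of -0.36 ± 0.085 (SE, adjusted p = 0.00371) in liver and -0.40 ± 0.085 (SE, adjusted p = 0.00187) in spleen. Its group means were 1829.5 ± 70.2 (SD, n = 3) in Liver Treg and 2349.7 ± 93.9 in Liver Tconv. The Ggps1 call in liver was lost without the 5 Foxp3-bearing Tconv libraries (adjusted p = 0.209).

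Fdps, the farnesyl diphosphate synthase at the branch point to squalene, read 381, 416 and 430.4 in LDLN Treg and 543, 573 and 527 in LDLN Tconv. In spleen the values were 542, 509 and 523 in Treg and 674, 662 and 637 in Tconv. Every Treg library was below every Tconv library in both tissues, with differences of -0.42 ± 0.088 (SE, adjusted p = 0.00177) and -0.33 ± 0.088 (SE, adjusted p = 0.0115). The Fdps call in spleen was lost in a fit of only the groups compared (adjusted p = 0.0637). In liver it read 630.2, 734 and 585 in Treg and 560.5, 559.9 and 552 in Tconv, where all Treg libraries were above and the difference of 0.21 ± 0.088 (SE, adjusted p = 0.0929) did not pass. PBMC, with 497, 436 and 469 in Treg and 431, 459 and 454 in Tconv, overlapped. Idi1, the isomerase that turns isopentenyl diphosphate into its reactive partner, read 1072, 1187 and 1082 in Liver Treg and 807, 902 and 765 in Liver Tconv, without overlap, and rose by 0.44 ± 0.13 (SE, adjusted p = 0.0163). The Idi1 call in liver was lost without Liver Tconv 3 or Liver Treg 2 (adjusted p 0.0749 to 0.0804), and without the 5 Foxp3-bearing Tconv libraries (adjusted p = 0.414). In LDLN its values were 652, 766 and 727 in Treg and 809, 829 and 841 in Tconv, with all Treg libraries lower, but this did not pass. PBMC gave 601, 706 and 890.3 against 760.5, 791 and 702, and spleen 822, 1013 and 1069.7 against 934, 1177 and 1108, Treg first, both overlapping. The mean of Fdps over tissues differed by -0.12 ± 0.044 (SE, adjusted p = 0.0368). The Fdps call for the mean of the tissues was lost without LDLN Tconv 1 or 2, LDLN Treg 1, Liver Tconv 1 or 2, Liver Treg 1 or 3, PBMC Tconv 2 or 3, PBMC Treg 2, Spleen Tconv 1 or 2 or Spleen Treg 2 or 3 (adjusted p 0.05 to 0.0737), and with no filter, with a replicate block, with edgeR on the recovered reads, without the 5 Foxp3-bearing Tconv libraries and without the 3 marker-rich libraries (adjusted p 0.061 to 0.0956). Mvk and Pmvk, the kinases that phosphorylate mevalonate in sequence, passed in none of the 4 tissues.

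Of the 3 genes from squalene to lanosterol, Fdft1 was higher in Treg in liver and PBMC, Lss was lower in spleen (and, with the replicate block, in liver, adjusted p = 0.0413), and Sqle passed in no tissue. Fdft1, the squalene synthase that commits isoprenoids to sterols, read 830.0, 968 and 784 in Liver Treg and 562, 548 and 550.3 in Liver Tconv. In PBMC it read 612, 636 and 809 in Treg and 509, 567 and 429.8 in Tconv. The groups did not overlap in either tissue, and Fdft1 rose by 0.63 ± 0.12 (SE, adjusted p = 0.000638) in liver and 0.45 ± 0.12 (SE, adjusted p = 0.0117) in PBMC. LDLN gave 543, 604 and 582 in Treg and 462, 536 and 443 in Tconv, and spleen 774, 825 and 871 and 824, 670.3 and 764, and neither tissue passed. The Fdft1 call in liver was lost without the 5 Foxp3-bearing Tconv libraries (adjusted p = 0.0502). The Fdft1 call in PBMC was lost without PBMC Tconv 3 or PBMC Treg 3 (adjusted p 0.0849 to 0.0865), and in a fit of only the groups compared (adjusted p = 0.103). Sqle, the squalene epoxidase and a rate-limiting step of the pathway, read 848, 889 and 913 in Liver Treg and 697, 797 and 687 in Liver Tconv. In LDLN Sqle read 612, 613 and 707 in Treg and 751, 793 and 699 in Tconv. PBMC values were 782, 668 and 835 and 700.1, 579 and 639.6, and spleen values 715, 863 and 1153 and 1054, 1034 and 1106, again Treg first. The Sqle difference was positive in liver and PBMC and negative in LDLN and spleen, and passed in none of them. Lss, the cyclase that closes the ring to lanosterol, was lower in Treg in spleen, at 557 ± 52.3 (SD, n = 3) against 813 ± 92, a difference of -0.54 ± 0.14 (SE, adjusted p = 0.00963). The Lss call in spleen was lost without the 5 Foxp3-bearing Tconv libraries (adjusted p = 0.0505). Its mean over tissues differed by -0.36 ± 0.071 (SE, adjusted p = 0.0003).

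Among the steps after lanosterol, Ebp showed the largest rise of any enzyme. It is the isomerase that shifts the sterol double bond, its promoter window holds 2 CCAAT boxes, and it read 2035, 2681 and 2617 in Liver Treg and 1292, 1276 and 1144 in Liver Tconv. In PBMC it read 1974, 2032 and 2302 in Treg and 1077, 1246 and 962 in Tconv. The lowest Treg library stood clear above the highest Tconv library in both tissues, and the differences were 0.97 ± 0.11 (SE, adjusted p = 1.2e-06) in liver and 0.95 ± 0.11 (SE, adjusted p = 1.28e-06) in PBMC. LDLN values were 1468, 1374 and 1328 in Treg and 1231, 1199 and 1128 in Tconv. Spleen values were 1391, 1587 and 1453 in Treg and 1251, 1131 and 1149 in Tconv. These groups did not overlap either, but the differences were smaller, at 0.23 ± 0.11 (SE, adjusted p = 0.189) in LDLN, which did not pass, and 0.33 ± 0.11 (SE, adjusted p = 0.0354) in spleen. The Ebp call in spleen was lost without Spleen Tconv 2 or 3 or Spleen Treg 2 or 3 (adjusted p 0.0648 to 0.141), and with no filter, with no variance trend, in a fit of only the groups compared, with a replicate block and without the 5 Foxp3-bearing Tconv libraries (adjusted p 0.0542 to 0.13). Its mean over tissues differed by 0.62 ± 0.053 (SE, adjusted p = 4.32e-09).

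Sc5d, the desaturase that acts after Ebp, read 2795, 3140.4 and 3079 in LDLN Treg and 2198, 2296 and 2045 in LDLN Tconv. In PBMC it read 3305, 2889 and 3239 in Treg and 1955, 2273 and 1751 in Tconv, and in liver 2882, 2992 and 2748 and 2184, 1991 and 1850.4. The groups did not overlap in these 3 tissues, with differences of 0.46 ± 0.095 (SE, adjusted p = 0.00149), 0.66 ± 0.095 (SE, adjusted p = 2.79e-05) and 0.52 ± 0.095 (SE, adjusted p = 0.000395). Spleen was unlike them, with 1747, 2003 and 2112 in Treg and 2023, 2028 and 2048 in Tconv, a difference of -0.06 ± 0.095 (SE, adjusted p = 0.722). Cyp51, the lanosterol demethylase, rose by 0.39 ± 0.12 (SE, adjusted p = 0.0221) in liver and 0.42 ± 0.12 (SE, adjusted p = 0.0159) in PBMC. The Cyp51 call in liver was lost without Liver Tconv 3 or Liver Treg 2 or 3 (adjusted p 0.0696 to 0.119), and without the 5 Foxp3-bearing Tconv libraries (adjusted p = 0.376). The Cyp51 call in PBMC was lost without PBMC Tconv 1 or PBMC Treg 3 (adjusted p 0.0597 to 0.116), in a fit of only the groups compared (adjusted p = 0.0788), and without the 5 Foxp3-bearing Tconv libraries (adjusted p = 0.0613). Nsdhl, which removes carbon groups from the sterol ring, rose in PBMC by 0.41 ± 0.12 (SE, adjusted p = 0.0205). The Nsdhl call in PBMC was lost without PBMC Tconv 3 or PBMC Treg 1 or 3 (adjusted p 0.0684 to 0.113), in a fit of only the groups compared (adjusted p = 0.103), and without the 5 Foxp3-bearing Tconv libraries (adjusted p = 0.0506). The Nsdhl call for the mean of the tissues was lost without the 5 Foxp3-bearing Tconv libraries (adjusted p = 0.251). Msmo1, the methylsterol oxidase that acts with Nsdhl, was lower in Treg in spleen, with a difference of -0.40 ± 0.10 (SE, adjusted p = 0.00743). The Msmo1 call in spleen was lost without Spleen Treg 1 (adjusted p = 0.0701), in a fit of only the groups compared (adjusted p = 0.066), and without the 3 marker-rich libraries (adjusted p = 0.0664). The Msmo1 call for the mean of the tissues was lost with quantile scaling (adjusted p = 0.0509), without the 5 Foxp3-bearing Tconv libraries (adjusted p = 0.0805), and without the 3 marker-rich libraries (adjusted p = 0.0899). Tm7sf2, Hsd17b7 and Dhcr7, reductases of this stretch, passed in none of the 4 tissues.

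**Figure D3:**
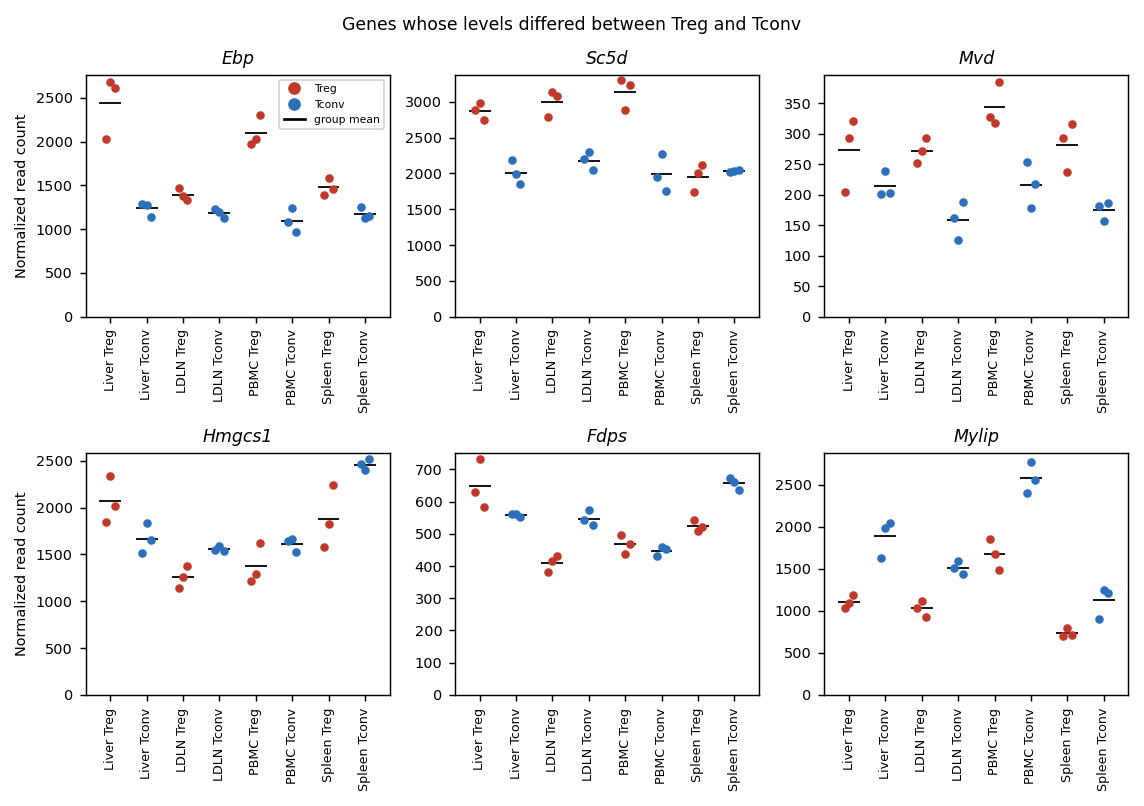
Normalized read counts of Ebp, Sc5d, Mvd, Hmgcs1, Fdps and Mylip in each library (points) by tissue, Treg (red) beside Tconv (blue), with a line at the group mean. The group means of Ebp and Mvd are higher in Treg and those of Mylip lower in Treg in every tissue, and the means of Hmgcs1 and Fdps are higher in Treg in liver but lower in spleen and LDLN.

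None of the 5 genes that control SREBP passed between the cell types in any single tissue in limma without the replicate block. In liver, LDLN, PBMC and spleen, limma called 0 of the 5, with 1, 0, 2 and 0 at an unadjusted p under 0.05, and edgeR and DESeq2 each called 1, Insig1 in PBMC. Insig1, which holds SCAP in the endoplasmic reticulum and is itself an SREBP target, read 1230.4, 717 and 796 in PBMC Treg and 613, 558 and 613 in PBMC Tconv, without overlap. Its difference of 0.58 ± 0.21 (SE, adjusted p = 0.0578) did not pass without the replicate block. With the block it passed (adjusted p = 0.01), though the numbers were not taken to pair the PBMC pools. In liver it read 942, 976 and 1011 in Treg and 780.4, 979 and 938 in Tconv. LDLN values were 606, 748 and 643 and 639, 597 and 625, and spleen values 2633, 2151 and 1952 and 3369, 2532 and 1496, Treg first. The groups overlapped in these 3 tissues. Between Treg and Tconv its relative Insig2 passed for the mean of the tissues, at 0.23 ± 0.069 (SE, adjusted p = 0.0112). The Insig2 call for the mean of the tissues was lost without the 5 Foxp3-bearing Tconv libraries (adjusted p = 0.147).

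Srebf2 read 1529, 1394 and 1889 in Liver Treg and 1370.4, 1532 and 1539 in Liver Tconv. In PBMC Srebf2 read 1804, 1496 and 1785 in Treg and 1465, 1071 and 1429.6 in Tconv, without overlap, a difference of 0.37 ± 0.15 (SE, adjusted p = 0.0893). LDLN values were 1042, 1055 and 1248 in Treg and 1316, 1309 and 1237 in Tconv, and spleen values 1655, 1492 and 1751 and 1208, 1868 and 1654. Srebf2 passed in no tissue. Srebf1, whose products are best known for fatty acid genes, read 597, 592 and 593 in Liver Treg and 606, 680.0 and 679.9 in Liver Tconv. In LDLN Srebf1 read 516, 596 and 549 in Treg and 753, 709.8 and 628 in Tconv. All Treg libraries were lower in both tissues, without passing. PBMC gave 609, 580.1 and 732 and 631, 687 and 698, and spleen 567, 646 and 585 and 256, 683 and 555, where Spleen Tconv 1 lay far below its group. Stard4, a carrier that moves sterol between membranes, was higher in Treg by 0.47 ± 0.12 (SE, adjusted p = 0.00917) in liver and 0.46 ± 0.12 (SE, adjusted p = 0.0113) in PBMC. The Stard4 call in liver was lost without Liver Tconv 1 (adjusted p = 0.0771), in a fit of only the groups compared (adjusted p = 0.0661), and without the 5 Foxp3-bearing Tconv libraries (adjusted p = 0.245). Npc1, which releases sterol from lysosomes, passed in none of the comparisons.

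In the LXR and efflux arm, Mylip, the ubiquitin ligase that marks lipoprotein receptors for destruction, was lower in Treg in every tissue. It read 1035, 1091 and 1188 in Liver Treg and 1630.5, 1986 and 2043 in Liver Tconv. LDLN values were 1037, 1123 and 928 in Treg and 1513, 1589 and 1434 in Tconv. PBMC values were 1860.3, 1673 and 1493 in Treg and 2400.0, 2778 and 2562 in Tconv. Groups did not overlap in any of these, nor in spleen, with 696, 796 and 708 in Treg and 906, 1255 and 1213 in Tconv. The differences were -0.77 ± 0.12 (SE, adjusted p = 7.83e-05) in liver, -0.56 ± 0.12 (SE, adjusted p = 0.00231) in LDLN, -0.63 ± 0.12 (SE, adjusted p = 0.000677) in PBMC and -0.60 ± 0.12 (SE, adjusted p = 0.00105) in spleen. The mean over tissues was -0.64 ± 0.060 (SE, adjusted p = 1.65e-08), and no alternative tried ended any of these 5 calls. Its promoter window holds 3 CCAAT boxes. Abca1, which loads cholesterol onto apolipoproteins, was at 847 ± 240.1 (SD, n = 3) in LDLN Treg and 595 ± 89 in LDLN Tconv but at 504 ± 93.2 in Liver Treg and 734 ± 235 in Liver Tconv. It passed in neither without the replicate block, and in liver with it (adjusted p = 0.0429). Abcg1 ranged from 5625 to 14937 over all libraries and Nr1h2 from 371 to 1059, and neither passed in any comparison.

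Nr1h3 had the largest difference of any member in a single tissue, and both it and the macrophage gene Csf1r were highest in Spleen Treg. It read 164, 114 and 151 in Spleen Treg and 66.5, 70.8 and 69.6 in Spleen Tconv, a difference of 1.02 ± 0.34 (SE, adjusted p = 0.0377). Csf1r, the receptor that macrophages need to live, read 1242, 838 and 1069 and 288, 301 and 314 in the same libraries. In liver Nr1h3 read 37.6, 46.4 and 21.9 in Treg and 44.3, 111 and 41.9 in Tconv. Csf1r read 33.8, 119.9 and 167 and 21.3, 872 and 9.97 there, so the library that stands out is Liver Tconv 2 for both genes. The liver difference of -0.79 ± 0.34 (SE, adjusted p = 0.105) passed with the replicate block (adjusted p = 0.0288). PBMC had Csf1r of 579.7, 431 and 368 in Treg and 42.5, 35.8 and 77.8 in Tconv, with Nr1h3 of 43.5, 39.3 and 24.6 and 58.2, 38 and 33.8. In LDLN Nr1h3 was 20.9, 36.9 and 34.3 in Treg and 25.4, 25.8 and 26.1 in Tconv, with Csf1r at most 18.1. Summed over the 8 macrophage and monocyte markers, spleen levels ran from 1877 to 3846 in Treg and from 790.2 to 988 in Tconv, and 7 of the 8 markers had a positive difference there. None of the 8 passed after adjustment, and 2 had an unadjusted p under 0.05. Elsewhere the sum ran from 261 to 1026 in Liver Treg, 249 to 9919 in Liver Tconv, 2289.9 to 2728 in PBMC Treg and 362 to 651 in PBMC Tconv. Clec4f was at 0 in 2 of 3 Spleen Treg libraries. The part of macrophage RNA in the Nr1h3 result was not tested. The Nr1h3 call in spleen was lost without Spleen Tconv 1, 2 or 3 or Spleen Treg 1 or 3 (adjusted p 0.0696 to 0.135), with no filter (adjusted p = 0.0681), with quantile scaling (adjusted p = 0.0653), and without the 3 marker-rich libraries (adjusted p = 0.0704).

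**Figure D4:**
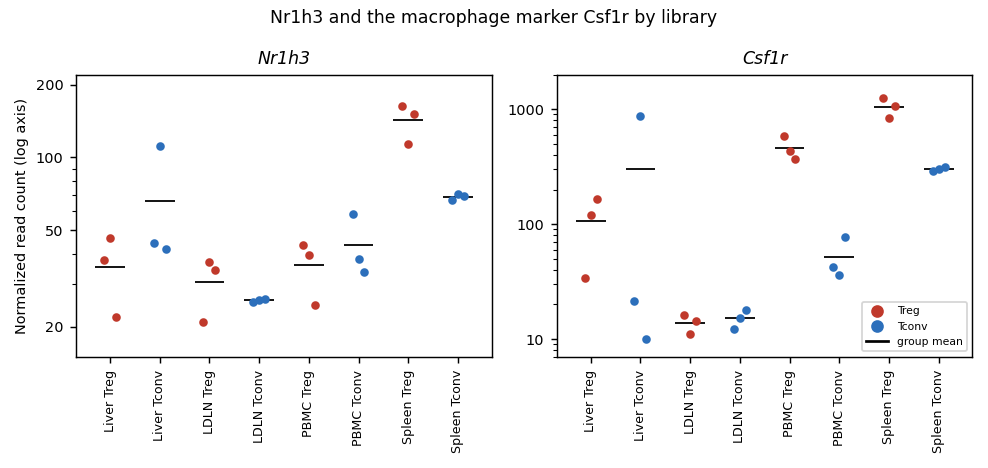
Normalized read counts of Nr1h3 (left) and the macrophage gene Csf1r (right) in each library (points), by tissue and cell type (red Treg, blue Tconv), on log axes with a line at the group mean. Both genes are high in Spleen Treg and in the library Liver Tconv 2, whereas PBMC Treg is high for Csf1r only.

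Whether the difference between Treg and Tconv itself varied among the 4 tissues was asked with an F-test. 3 of 31 members passed (9.68%, against 2.00% of all genes tested): Ebp, Fdps and Sc5d. Ebp (adjusted p = 0.00725) had log2 differences of 0.97 ± 0.11 (SE) in liver, 0.23 ± 0.11 (SE) in LDLN, 0.95 ± 0.11 (SE) in PBMC and 0.33 ± 0.11 (SE) in spleen, with liver and PBMC above LDLN and spleen. Sc5d (adjusted p = 0.015) was higher in Treg everywhere but in spleen, as given above. Fdps (adjusted p = 0.0125) had differences of 0.21 ± 0.088 (SE) in liver, -0.42 ± 0.088 (SE) in LDLN, 0.06 ± 0.088 (SE) in PBMC and -0.33 ± 0.088 (SE) in spleen, positive in liver and negative in LDLN and spleen. The Ebp call for a difference among tissues was lost without the 5 Foxp3-bearing Tconv libraries (adjusted p = 0.0551). The Fdps call for a difference among tissues was lost without the 5 Foxp3-bearing Tconv libraries (adjusted p = 0.116). The Sc5d call for a difference among tissues was lost without Spleen Treg 1 (adjusted p = 0.0599), and without the 5 Foxp3-bearing Tconv libraries (adjusted p = 0.0797). Without Spleen Treg 3, 5 members passed. With a replicate block, which also pairs the PBMC and spleen pools by number, 5 passed (all genes 3.62%), adding Hmgcs1 (adjusted p = 0.0421) and Nr1h3 (0.0335). With DESeq2 on the recovered reads 8 passed, for which the share of all genes is not given here. Mylip did not pass (adjusted p = 0.85).

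Liver Treg were compared with the mean of LDLN, PBMC and spleen Treg to ask how liver differs. 6 of 31 members passed (19.4%, against 19.7% of all genes tested), all higher in liver (all genes 9.66% higher and 10.1% lower), with a member median of 0.08 against 0.03 over all genes. The share of members was at that of all genes. They were the enzymes Ebp, Idi1, Hmgcs1, Fdps and Fdft1 and the carrier Stard4. Ebp was higher by 0.58 ± 0.087 (SE, adjusted p = 7.66e-05), Idi1 by 0.49 ± 0.10 (SE, adjusted p = 0.00184), Hmgcs1 by 0.48 ± 0.098 (SE, adjusted p = 0.0014) and Fdps by 0.48 ± 0.072 (SE, adjusted p = 7.66e-05). Fdft1 was higher by 0.32 ± 0.099 (SE, adjusted p = 0.0255) and Stard4 by 0.32 ± 0.10 (SE, adjusted p = 0.0294). The Fdft1 call for Liver Treg was lost without Liver Treg 1 or 2 (adjusted p 0.0581 to 0.197). The Stard4 call for Liver Treg was lost without Liver Treg 2 or 3 (adjusted p 0.114 to 0.133), and without the 3 marker-rich libraries (adjusted p = 0.0509). The liver did not lead every tissue. Of the 6 genes, Idi1 and Fdps had all Liver Treg libraries above all 9 other Treg libraries, whereas Stard4 differed from spleen by -0.26 ± 0.12 (SE), and Ebp was near PBMC, at 0.21 ± 0.11 (SE). Hmgcs1 was 0.71 ± 0.12 (SE) above LDLN and 0.59 ± 0.12 (SE) above PBMC but 0.15 ± 0.12 (SE) from spleen.

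In Tconv the same contrast gave 0 of 31 members in limma, against 3.18% of all genes tested (2.58% higher and 0.598% lower). 3 members had an unadjusted p under 0.05, and edgeR and DESeq2 each called 1, Cyp51, at -0.34 ± 0.098 (SE, adjusted p = 0.0638) in limma. The difference between the liver effects of the cell types passed for 2 of 31 members (6.45%, against 0.748% of all genes tested), both greater in Treg, as were 0.377% of all genes. Hmgcs1 had a liver effect in Treg greater by 0.63 ± 0.14 (SE, adjusted p = 0.0339) and Fdps by 0.44 ± 0.10 (SE, adjusted p = 0.0427) than in Tconv, where their own liver effects were -0.14 ± 0.098 (SE, adjusted p = 0.59) and 0.04 ± 0.072 (SE, adjusted p = 0.908). The Fdps call for the difference in liver effect was lost without LDLN Tconv 1, 2 or 3, LDLN Treg 1 or 2, Liver Tconv 1, 2 or 3, Liver Treg 1 or 2, PBMC Tconv 3, PBMC Treg 2, Spleen Tconv 2 or 3 or Spleen Treg 1, 2 or 3 (adjusted p 0.0513 to 0.213), and with no filter, with a replicate block, without the 5 Foxp3-bearing Tconv libraries and without the 3 marker-rich libraries (adjusted p 0.0602 to 0.239). The Hmgcs1 call for the difference in liver effect was lost without LDLN Tconv 1 or 2, LDLN Treg 1 or 2, Liver Tconv 1 or 3, Liver Treg 2 or 3 or PBMC Treg 2 (adjusted p 0.0517 to 0.185), with no variance trend (adjusted p = 0.0709), and without the 5 Foxp3-bearing Tconv libraries (adjusted p = 0.416). The count of 2 members became 0 without LDLN Tconv 1 or 2, LDLN Treg 1 or 2, Liver Tconv 1 or 3, Liver Treg 2 or PBMC Treg 2. It became 1 without LDLN Tconv 3, Liver Treg 3, PBMC Tconv 3, Spleen Tconv 2 or 3, or any 1 of the Spleen Treg libraries. Beside these liver results, all 10 cell cycle genes were higher in Liver Treg than in the other Treg, with a median of 1.96, and 2 of 10 in Tconv. Their summed level ran from 15489.7 to 27728 in Liver Treg and from 3270.0 to 7345 in Liver Tconv. Cyp2e1, a hepatocyte enzyme chosen after the data were seen, read 62.8 to 1675 in the 6 liver libraries and 28.6 to 70 in the other 18. The parts of dividing cells and of hepatocyte RNA in the liver results were not tested, and the 9 hepatocyte markers listed for the check were not analysed here.

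The members differed widely among the lymphoid tissues and blood, most often with the highest level in spleen. Over LDLN, PBMC and spleen, 17 of 31 members differed in Treg (54.8%, against 38.8% of all genes tested) and 17 in Tconv (54.8%, against 27.4%). 14 passed in both cell types, and 11 of these had their highest mean in spleen in both: Hmgcs1, Mvk, Idi1, Fdps, Fdft1, Sqle, Cyp51, Hsd17b7, Insig1, Stard4 and Nr1h3. The share of all genes that passed in both, or were highest in spleen in both, is not given here. Whether this order is particular to the members was therefore not tested. Insig1, with 1 CCAAT box in its promoter window, had means of 2466 ± 938 (SD, n = 3) in Spleen Tconv, 621 ± 21.4 in LDLN Tconv and 595 ± 31.9 in PBMC Tconv. In Treg its means were 2245 ± 349.9 in spleen, 666 ± 73.8 in LDLN and 915 ± 276 in PBMC. LDLN minus spleen was -1.91 ± 0.21 (SE) in Tconv and -1.75 ± 0.21 (SE) in Treg on the log2 scale, while LDLN and PBMC overlapped in both cell types. The limma F-test gave an adjusted p of 3.1e-06 in Treg and 2.81e-07 in Tconv. Other signals differed among these tissues as well. Of the 10 cell cycle genes, 10 passed in Treg and 2 in Tconv, and in Treg their summed level ran from 2648 to 3327 in LDLN, 4991 to 10366 in PBMC and 8672 to 10541 in spleen. In Tconv it ran from 1561 to 2449 in LDLN, 1903 to 2469 in PBMC and 3017 to 4369 in spleen. Platelet and erythroid markers, of which 6 of 6 passed in each cell type, summed to at most 676 in LDLN, to 31927 to 34934 in PBMC Treg and 21975 to 36678 in PBMC Tconv, and to 8401 to 38588 in Spleen Treg and 9839 to 23343 in Spleen Tconv. B cell markers, of which 5 of 6 passed in Treg and 6 of 6 in Tconv, summed to 1319.8 to 3596 in LDLN Treg, 9510.1 to 13923 in PBMC Treg and 6109 to 17068 in Spleen Treg. In Tconv they summed to 1144 to 3248 in LDLN, 10777 to 22119.6 in PBMC and 2520.4 to 4168 in spleen. The part of dividing cells and of other cells' RNA in the tissue differences of the members was not tested.

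Cyp51 followed the same order in Treg, at 2152, 2213 and 2097 in spleen, 1058, 1181 and 1465 in LDLN and 1298, 1182 and 1636 in PBMC. In Tconv it read 2409.6, 2373 and 1948 in spleen, 1411, 1461 and 1363 in LDLN and 975, 1034 and 1037 in PBMC. LDLN and PBMC overlapped in Treg, but in Tconv all 3 tissues were apart. Stard4 had means of 1178 ± 111 (SD, n = 3) in Spleen Treg and 583 ± 15 in LDLN Treg, and Mvk of 339.8 ± 39 and 183 ± 9.07. Hmgcs1 was -0.66 ± 0.12 (SE) in LDLN relative to spleen in Tconv. Lss, Msmo1 and Nsdhl passed in Tconv and not in Treg, also highest in spleen. The difference between the cell types in these tissue effects was not tested. The Idi1 call in Treg was lost without Spleen Treg 2 or 3 (adjusted p 0.0676 to 0.0889), with quantile scaling (adjusted p = 0.0638), with upper quartile scaling (adjusted p = 0.0686), and in a fit of only the groups compared (adjusted p = 0.0611). The Sqle call in Treg was lost without LDLN Treg 1 or 2 or Spleen Treg 3 (adjusted p 0.0645 to 0.085), with quantile scaling (adjusted p = 0.0621), with upper quartile scaling (adjusted p = 0.0617), and in a fit of only the groups compared (adjusted p = 0.0897). The Idi1 call in Tconv was lost without Spleen Tconv 2 (adjusted p = 0.0665), with quantile scaling (adjusted p = 0.0516), and without the 5 Foxp3-bearing Tconv libraries (adjusted p = 0.0954). The Lss call in Tconv was lost without LDLN Tconv 1, 2 or 3, LDLN Treg 1, 2 or 3, Liver Tconv 2 or 3, Liver Treg 1, 2 or 3, PBMC Tconv 2 or 3, PBMC Treg 2, Spleen Tconv 1 or 3 or Spleen Treg 1, 2 or 3 (adjusted p 0.0515 to 0.217), and pseudocount 0.1, with no filter, with quantile scaling, with upper quartile scaling, with no variance trend, with edgeR on the recovered reads, without the 5 Foxp3-bearing Tconv libraries and without the 3 marker-rich libraries (adjusted p 0.0509 to 0.174). The Msmo1 call in Tconv was lost without PBMC Tconv 1 or 3 (adjusted p 0.0731 to 0.146), with quantile scaling (adjusted p = 0.0947), with upper quartile scaling (adjusted p = 0.0916), and without the 5 Foxp3-bearing Tconv libraries (adjusted p = 0.238). The Hsd17b7 call in Tconv was lost without LDLN Tconv 1 or 3, LDLN Treg 2, PBMC Tconv 1 or 3, Spleen Tconv 1 or 2 or Spleen Treg 2 (adjusted p 0.05 to 0.178), and with no filter, with upper quartile scaling, with no variance trend, in a fit of only the groups compared, with edgeR on the recovered reads and without the 5 Foxp3-bearing Tconv libraries (adjusted p 0.055 to 0.108).

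**Figure D5:**
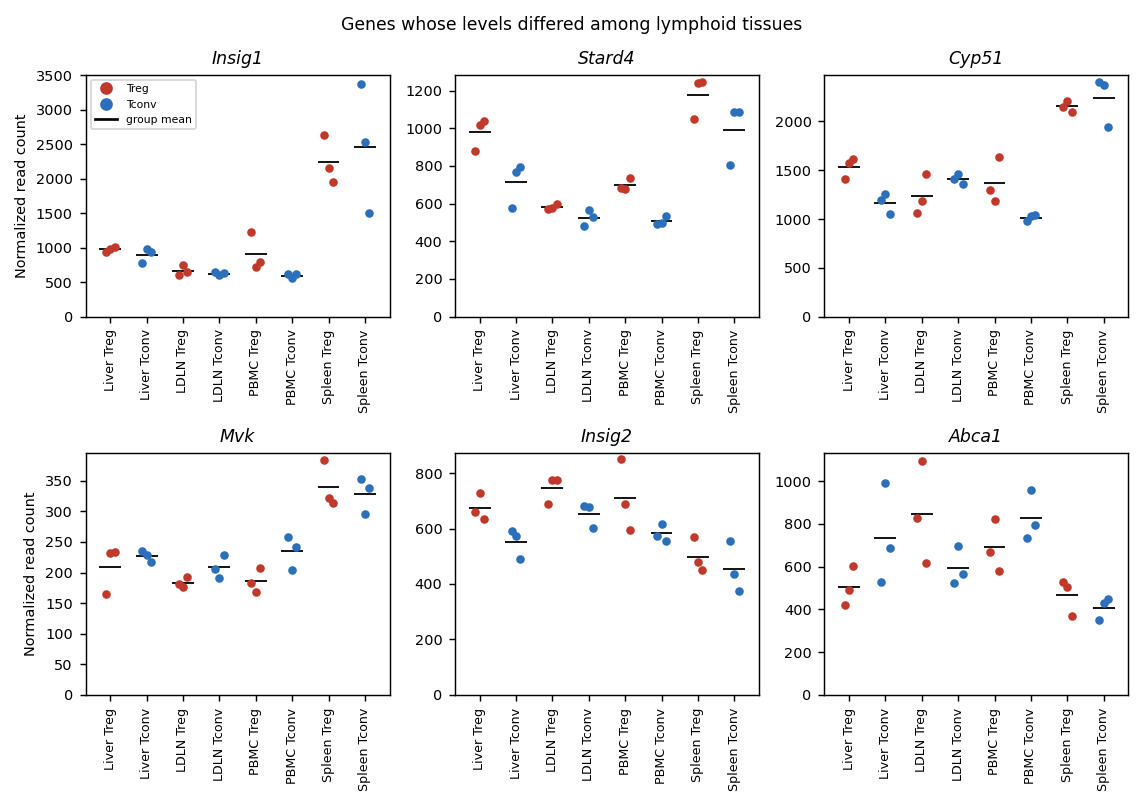
Normalized read counts of Insig1, Stard4, Cyp51, Mvk, Insig2 and Abca1 in each library (points) by tissue, Treg (red) beside Tconv (blue), with a line at the group mean. Insig1, Stard4, Cyp51 and Mvk have their highest group means in spleen, where Insig2 and Abca1 have their lowest.

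Other members had other orders. Insig2 was highest in LDLN and lowest in spleen, with means of 746 ± 48.6 (SD, n = 3) and 499 ± 61.6 in Treg and 654 ± 45.6 and 455 ± 91 in Tconv. The Insig2 call in Tconv was lost without Spleen Tconv 2 or 3 (adjusted p 0.0518 to 0.0956), and without the 5 Foxp3-bearing Tconv libraries (adjusted p = 0.112). Mylip was highest in PBMC and lowest in spleen in both cell types, a log2 distance of 1.19 ± 0.12 (SE) in Treg and 1.21 ± 0.12 (SE) in Tconv. Abca1 was lowest in spleen in both cell types, at 468 ± 85.1 in Treg and 408 ± 52.2 in Tconv, and highest in LDLN for Treg and PBMC for Tconv. The Abca1 call in Treg was lost without LDLN Treg 2 or Spleen Treg 3 (adjusted p 0.0516 to 0.0866). Ebp, Sc5d and Srebf2 passed in Treg and not in Tconv, highest in PBMC. 8 members passed in no comparison of any kind: Pmvk, Tm7sf2, Dhcr7, Srebf1, Scap, Npc1, Abcg1 and Nr1h2.

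Beyond the members, a list of other sterol and isoprenoid enzymes, 13 of whose 14 genes were in the table, held only lower calls in Treg. In liver 6 of 13 were lower, in LDLN 4, in PBMC 5 and in spleen 5, where 10.3%, 5.99%, 7.95% and 8.75% of all genes were lower. The medians were -0.28, -0.17, -0.01 and -0.20. Fntb, a subunit of protein farnesyltransferase, had the largest fall in each tissue, with differences of -1.63 ± 0.15 (SE, adjusted p = 1.09e-07) in liver and -0.95 ± 0.15 (SE, adjusted p = 8.99e-05) in LDLN. Pdss2, which makes the side chain of coenzyme Q, fell by 0.46 ± 0.11 (SE, adjusted p = 0.00282) in liver. Lbr, a sterol reductase of the nuclear envelope, was lower, with differences of -0.52 ± 0.081 (SE, adjusted p = 8.08e-05) in LDLN and -0.62 ± 0.081 (SE, adjusted p = 1.15e-05) in spleen. In Liver Treg Lbr was instead higher than in the other Treg, by 0.53 ± 0.066 (SE, adjusted p = 1.09e-05).

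Of 15 tested genes of other sterol transport and sensing, 2 were higher and 3 lower in Treg in liver, 2 and 4 in LDLN, 3 and 4 in PBMC, and 2 and 3 in spleen. Over all genes 10.2% were higher and 10.3% lower in liver, 7.83% and 5.99% in LDLN, 10.2% and 7.95% in PBMC, and 10.1% and 8.75% in spleen, so that 2 of 15 higher is close to the share of all genes. Npc2, which hands sterol to NPC1 in the lysosome, was lower, with differences of -0.73 ± 0.085 (SE, adjusted p = 2.71e-06) in liver and -0.80 ± 0.085 (SE, adjusted p = 6.78e-07) in spleen. Gramd1a, a carrier between the plasma membrane and the endoplasmic reticulum, fell by 1.25 ± 0.22 (SE, adjusted p = 0.000258) in LDLN. Its relative Gramd1b rose there by 0.75 ± 0.18 (SE, adjusted p = 0.00662). Tmem97, the sigma receptor that binds NPC1, rose by 0.67 ± 0.21 (SE, adjusted p = 0.0261) in liver. These lists were chosen with earlier results of the data known.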

How the data were processed

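RNA of sorted Treg and Tconv from 4 tissues was amplified with SMARTer, poly(A) selected and sequenced as paired ends, per the labels' protocols. The submitters' processing notes name HTSeq 0.6.1p1, Bowtie2 2.2.2 with TopHat2 2.0.11, Trimmomatic 0.32 and SAMtools 0.1.19. The deposited signal is a normalized read count per gene, made by the authors. How the factors were set and whether strand was used is not stated. Dividing each library by its smallest step recovered whole reads for 100.0% of values (tolerance 0.001), 17523927 to 25398037 reads per library. The 18576 genes that reached a minimum of 10 in 3 or more of the 24 libraries were tested with limma 3.58.1 (R 4.3.3) on log2(value + 1), with a variance trend, all 8 groups in 1 fit, 16 residual degrees of freedom and Benjamini-Hochberg adjustment. Alternatives were edgeR 4.0.16 and DESeq2 1.42.0 on the recovered reads, other pseudocounts (0.1, 10), filters and scalings, fits of only the groups compared, a replicate block and left-out libraries. The labels do not say whether a number marks a shared batch. Deviations of same-numbered Treg and Tconv pools correlated at 0.102 to 0.385 in liver and 0.122 to 0.31 in LDLN, every pair over 0.1. There the numbers were taken to pair the pools, as an assumption, and blocked values stand beside the results. The lowest pair was 0.082 in PBMC and 0.071 in spleen. Between tissues, 29 of 72 same-numbered pairs also exceeded 0.1 (range -0.4 to 0.501), so this limit does not show that pools were paired. The fit was tested on simulated data for Treg against Tconv in liver. Of 100 genes changed by a log2 of 1, 52% were recovered, and of 100 changed by 0.5, 13%, with 6 false calls. The simulation covered 18576 genes, so these shares are not those of the members, whose precision is given by their standard errors. A member that did not pass can still differ. Exon lengths and overlaps come from GENCODE M21 and promoters from RefSeq. The members and lists were chosen with earlier results of these data known. All 31 members are named. Values in every library are given for Insig1, Srebf1, Srebf2, Hmgcs1, Sqle and the 3 called members with the largest difference in each directed comparison. Of the other lists, at most 3 called genes per comparison are named.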

Additional observations from a re-analysis of the deposited data

Results flagged for a closer look

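For 3 members the difference between Treg and Tconv itself differed among the 4 tissues, by a limma F-test adjusted over all genes. The range of the log2 difference over the tissues was 0.63 for Fdps (adjusted p = 0.0125), 0.74 for Ebp (adjusted p = 0.00725) and 0.73 for Sc5d (adjusted p = 0.015). For 2 members the liver effect, taken against the mean of LDLN, PBMC and spleen, differed between the cell types. It was larger in Treg by 0.63 on the log2 scale for Hmgcs1 (adjusted p = 0.0339) and by 0.44 for Fdps (adjusted p = 0.0427). Each of these calls was lost without the 5 Foxp3-bearing Tconv libraries. In that fit the only Liver Tconv library left is Liver Tconv 2, which is marker-rich.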

How the results depend on the processing

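Of 90 member calls, 53 were kept under each of the alternatives run and none changed direction. 35 alternatives were planned, and 3 were added after the data were seen: a block on the replicate number over all tissues, leaving out the 5 Foxp3-bearing Tconv libraries, which lost 26 calls and leaves 1 Liver Tconv library that is assumed to vary like the other groups, and leaving out the 3 marker-rich libraries, which lost 12. The only Liver Tconv library left without the Foxp3-bearing libraries is Liver Tconv 2, which is marker-rich. Treg against Tconv gave 6 members in spleen without the marker-rich libraries. It gave 9 in LDLN, 5 in PBMC and 5 in spleen in a fit of only the groups compared. For the difference among tissues, 8 members passed with DESeq2 and 1 without the Foxp3-bearing libraries. For liver in Tconv, 1 passed with upper quartile scaling, with edgeR, with DESeq2 and without the Foxp3-bearing libraries. For the difference in liver effect, 1 passed with no filter, with no variance trend, without the Foxp3-bearing libraries and without the marker-rich libraries, and 4 with DESeq2. The causes were not tested. For most of these settings and for the left-out libraries the share of all genes is not given here, so a changed count does not describe the members alone. Leaving out 1 library at a time gave 6 to 9 members in liver, 4 to 5 in LDLN, 5 to 11 in PBMC (5 without PBMC Treg 3), 6 to 10 in spleen (6 without Spleen Treg 1), 2 to 5 for the difference among tissues (5 without Spleen Treg 3), 0 to 1 for liver in Tconv (1 without LDLN Treg 3, PBMC Treg 3 or Spleen Tconv 3) and 0 to 3 for the difference in liver effect. With quantile scaling, the share of higher calls over all genes for liver in Tconv went from 81.2% to 70.9%.

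In PBMC and spleen 1 same-numbered pair each fell below a correlation of 0.1, so the numbers were not taken to pair those pools. Over the 4 tissues, 8 of 12 samples correlated best with their own number. A replicate block within tissue lost 3 of the 90 calls and gained 11, and the block on the number over all tissues lost 0 and gained 10. Each block gave 5 members for the difference among tissues. The 3 pools in each group limit the precision, and at the low level of Nr1h3 the standard error of a log2 difference in spleen was 0.34.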

Other observations

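Among 13 genes of LXR signalling and fatty acid synthesis, a list chosen with earlier results of these data known, Treg and Tconv differed in a few receptors and enzymes. In liver 2 were higher and 1 lower in Treg, in LDLN 2 and 1, in PBMC 2 and 2, and in spleen 2 and 1, by limma with Benjamini-Hochberg adjustment. Over all genes 10.2% were higher and 10.3% lower in liver, 7.83% and 5.99% in LDLN, 10.2% and 7.95% in PBMC, and 10.1% and 8.75% in spleen. Counts of 1 or 2 of 13 lie near these shares. Rxra, the partner receptor of LXR, was higher in Treg by 0.89 ± 0.20 (SE, adjusted p = 0.00301) in liver on the log2 scale, by 0.82 ± 0.20 (SE, adjusted p = 0.00725) in LDLN, by 1.46 ± 0.20 (SE, adjusted p = 2.11e-05) in PBMC and by 0.94 ± 0.20 (SE, adjusted p = 0.00217) in spleen. Nr1d1, a heme-binding repressor of the circadian clock, was higher by 1.08 ± 0.24 (SE, adjusted p = 0.00249) in liver, 1.22 ± 0.24 (SE, adjusted p = 0.00109) in LDLN and 1.54 ± 0.24 (SE, adjusted p = 8.21e-05) in PBMC. Lpcat3, which remodels phospholipids, fell by 0.71 ± 0.12 (SE, adjusted p = 0.000173) in liver. Its differences elsewhere were -0.63 ± 0.12 (SE, adjusted p = 0.000623) in LDLN, -0.74 ± 0.12 (SE, adjusted p = 0.000104) in PBMC and -0.49 ± 0.12 (SE, adjusted p = 0.00551) in spleen.

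In Treg, 4 of the 13 were higher in liver than in the mean of the other tissues, as were 9.66% of all genes. Apoe, which carries lipid in lipoproteins and is abundant in macrophages and hepatocytes, differed by 2.24 ± 0.49 (SE, adjusted p = 0.00247), the desaturase Fads2 by 2.10 ± 0.63 (SE, adjusted p = 0.0231) and the desaturase Scd1 by 1.65 ± 0.50 (SE, adjusted p = 0.0237). In Tconv 1 of the 13 passed, Apoe, higher in liver by 1.92 ± 0.49 (SE, adjusted p = 0.0302), as were 2.58% of all genes. Fads2 differed there by 2.07 ± 0.63 (SE, adjusted p = 0.0821) and Scd1 by 0.84 ± 0.50 (SE, adjusted p = 0.501), without passing. The summed macrophage and monocyte markers ran from 261 to 1026 in Liver Treg and from 157 to 323 in LDLN Treg. They ran from 2289.9 to 2728 in PBMC Treg and from 1877 to 3846 in Spleen Treg, above Liver Treg. The hepatocyte enzyme Cyp2e1 was higher in liver by 2.66 ± 0.59 (SE, adjusted p = 0.00306) in Treg. In Tconv it was higher by 2.39 ± 0.59 (SE, adjusted p = 0.0274). The parts of macrophage and hepatocyte RNA in the Apoe, Fads2 and Scd1 results were not tested.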
